A study of Mus musculus with 10 samples.

Results

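The proteasome is the barrel-shaped protease that degrades ubiquitin-tagged proteins in the cytosol and nucleus. Its 20S core stacks outer alpha rings, which gate entry, on inner beta rings, in which Psmb5, Psmb6 and Psmb7 carry the chymotrypsin-like, caspase-like and trypsin-like sites. The 19S cap recognizes ubiquitin chains, removes them and unfolds the substrate with a ring of ATPases, while dedicated chaperones assemble both particles. In cells exposed to interferon, Psmb8, Psmb9 and Psmb10 replace the standard catalytic subunits and form the immunoproteasome. When proteasome capacity is short, the transcription factor NRF1 (Nfe2l1) raises transcription of most subunits together.

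The constitutive proteasome genes were taken by symbol as the protein-coding genes Psma1 to Psma7, Psmb1 to Psmb7, Psmc1 to Psmc6, the Psmd genes, Psme3, Psme4, Psmf1 and Psmg1 to Psmg4, with the immunoproteasome subunits left out. This gave 41 of the 41388 genes listed. They were 7 alpha ring and 7 beta ring genes, 6 ATPases and 11 other 19S subunits, 3 assembly chaperones of the 19S cap, 4 of the 20S core, and 3 genes for other caps or an inhibitor. All 41 passed the filter on low values in a table of 13444 tested genes. Livers came from littermate mice of strain C57B/6J aged 12 weeks, with 1 RNA-seq library per mouse. WT refed mice (n = 2) were fasted for 22 h and given food for 2 h, and WT fasting mice (n = 3) were fasted for 24 h. Both WT groups carried the floxed Nampt gene without Cre. NAMPT LKO fasting mice (n = 5) were fasted for 24 h and lacked Nampt, the rate-limiting enzyme of NAD salvage, through Albumin-cre, which acts in hepatocytes and leaves Nampt in other liver cells. Refed NAMPT LKO mice were not analysed here.

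Libraries held 30603080 to 43434139 counts, and the 41 genes together took 0.322% to 0.416% of them. Nampt was at 78.0 and 67.8 CPM (counts scaled to a common library total, here with the trimmed mean of M values, TMM) in WT refed livers, at 63.0, 73.4 and 141 CPM in WT fasting livers and at 11.8 to 15.3 CPM in NAMPT LKO fasting livers. Summed CPM of gene lists, here and below, and values given as under 0.1 CPM were scaled by the library total alone, without TMM. The summed CPM of 8 hepatocyte markers was 65290 to 99010 in every library, whereas 9 lymphocyte markers summed to 7.49 to 17.3 CPM. The neutrophil marker Ly6g and the NK cell marker Ncr1 were under 0.1 CPM everywhere. The libraries of 2 mice stood apart: in NAMPT LKO fasting 5 mitochondrial genes took 21.1% of counts, against 7.42% to 12.9% elsewhere, and WT fasting 3 had the lowest share, 7.42%, and an interferon-induced gene sum of 8348 CPM against 2926 to 3917 CPM elsewhere. Counts of called genes, and of genes at an unadjusted p under 0.05, are also given without these libraries where they moved. In bulk liver, fewer cells of a type and less RNA per cell cannot be told apart.

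The 250 bases upstream of the annotated start are shown for Psme3, Psmd5 and Psmd9, the 3 genes that passed the test between fasting and refed WT liver. Sequences are those of RefSeq on GRCm38.p6 and read towards the start of the gene. Capitals mark matches, on either strand, to CCAAT (the NF-Y box), GGGCGG (the GC box) and TGACNNNGC (the core of the antioxidant response element, which NRF1 and NRF2 can bind). Psme3 lies on the forward strand (chr11:101315963-101316212), Psmd5 on the reverse strand (chr2:34870963-34871212) and Psmd9 on the forward strand (chr5:123227940-123228189).
Psme3: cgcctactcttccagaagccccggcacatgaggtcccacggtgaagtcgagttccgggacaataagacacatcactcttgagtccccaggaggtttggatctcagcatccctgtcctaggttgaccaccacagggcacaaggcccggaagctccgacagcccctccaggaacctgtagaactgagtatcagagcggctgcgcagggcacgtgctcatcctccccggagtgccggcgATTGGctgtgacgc
Psmd5: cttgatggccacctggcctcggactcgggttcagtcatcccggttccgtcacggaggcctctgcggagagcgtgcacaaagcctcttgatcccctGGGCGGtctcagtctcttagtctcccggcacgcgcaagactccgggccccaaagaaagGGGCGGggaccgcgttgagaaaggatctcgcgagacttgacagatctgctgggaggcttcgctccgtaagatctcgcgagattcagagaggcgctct
Psmd9: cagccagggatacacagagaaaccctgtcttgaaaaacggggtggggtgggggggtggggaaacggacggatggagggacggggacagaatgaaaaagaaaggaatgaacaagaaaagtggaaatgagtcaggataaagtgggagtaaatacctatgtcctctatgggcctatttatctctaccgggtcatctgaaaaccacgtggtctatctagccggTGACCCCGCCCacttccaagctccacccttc

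Psme3 had 1 CCAAT match and neither other motif, Psmd5 had 2 GC boxes, and Psmd9 had 1 antioxidant response element core that overlapped its GC box. Over the 34 of 41 genes with a sequence in the table, the antioxidant response element core was found upstream of 5 genes (14.7%, against 11.5% of 27025 genes), namely Psmb5, Psmb6, Psmc6, Psmd12 and Psmd9. CCAAT was found upstream of 12 genes (35.3%, against 37.5%) and the GC box upstream of 19 (55.9%, against 35.4%). The element is shown with its flanks, in capitals, for the catalytic subunit genes Psmb5 (chr14:54618023-54618052, reverse strand gene) and Psmb6 (chr11:70525338-70525356, forward strand gene).
Psmb5: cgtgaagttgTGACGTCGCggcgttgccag
Psmb6: ctaaagagagTGACGGAGC
These are matches of letters and not measured binding sites. Upstream sequence of Psmb1, Psmb2, Psmb7, Psmc3, Psmd3, Psmd7 and Psmg2 was not analysed here.

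Levels per length, as RPKM (reads divided by exonic length and library total), spanned 71.7-fold, from 1.92 RPKM for Psmg3 to 138 RPKM for Psmb1, with a median of 41.9 RPKM over the 41 genes. Among the 41 genes, class medians of the particle subunits were above those of the assembly chaperones. This does not extend to every helper, since the core maturation factor Pomp, outside the symbol rule, was at 112.7 RPKM. The median gene of the beta ring was at 78.9 RPKM, of the 19S ATPases at 53.3 RPKM, of the alpha ring at 49.5 RPKM and of the other 19S subunits at 33.0 RPKM, against 10.3 RPKM for the 20S assembly chaperones and 8.36 RPKM for the 19S assembly chaperones. Within the beta ring, whose subunits are built in at equal numbers, levels differed 4.04-fold between Psmb3 (34.1 RPKM) and Psmb1. This fold depends on the exonic lengths used, 2300 bases for Psmb3 and 1036 for Psmb1. Without division by length their means in WT refed livers were 82.9 and 145.6 CPM.

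The order was led by Psmb1, a noncatalytic beta subunit, at 145 ± 0.356 RPKM (SD, n = 2) in WT refed, 139 ± 2.07 RPKM (n = 3) in WT fasting and 130 ± 6.24 RPKM (n = 5) in NAMPT LKO fasting livers. The catalytic subunit gene Psmb7 came next, at 102 ± 7.31, 98.2 ± 6.43 and 91.2 ± 5.27 RPKM, followed by Psmd8, a lid subunit of the 19S cap, at 97.5 ± 5.22, 95.7 ± 3.21 and 88.1 ± 15.7 RPKM. The group ranges of Psmb7 and Psmd8 did not separate beyond these SDs. RPKM carries no TMM scaling, and with TMM scaling the groups of Psmb1 overlapped in every comparison. Its log2 fold change was -0.003 (SE 0.12) in WT fasting against WT refed and -0.06 (SE 0.10) in NAMPT LKO fasting against WT fasting livers. At the other end were Psmd10, which encodes the 19S chaperone gankyrin, at 6.07 ± 0.139, 5.56 ± 0.433 and 5.75 ± 0.441 RPKM, Psmf1, which encodes the proteasome inhibitor PI31, at 4.00 ± 0.152, 4.37 ± 0.0824 and 3.92 ± 0.505 RPKM, and Psmg3, a 20S chaperone gene, at 2.34 ± 0.240, 1.85 ± 0.0673 and 1.58 ± 0.283 RPKM. These levels depend on the exon lengths used, and with GENCODE lengths and TMM scaling the median level was 31.2 in place of 41.9.

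**Figure D1:**
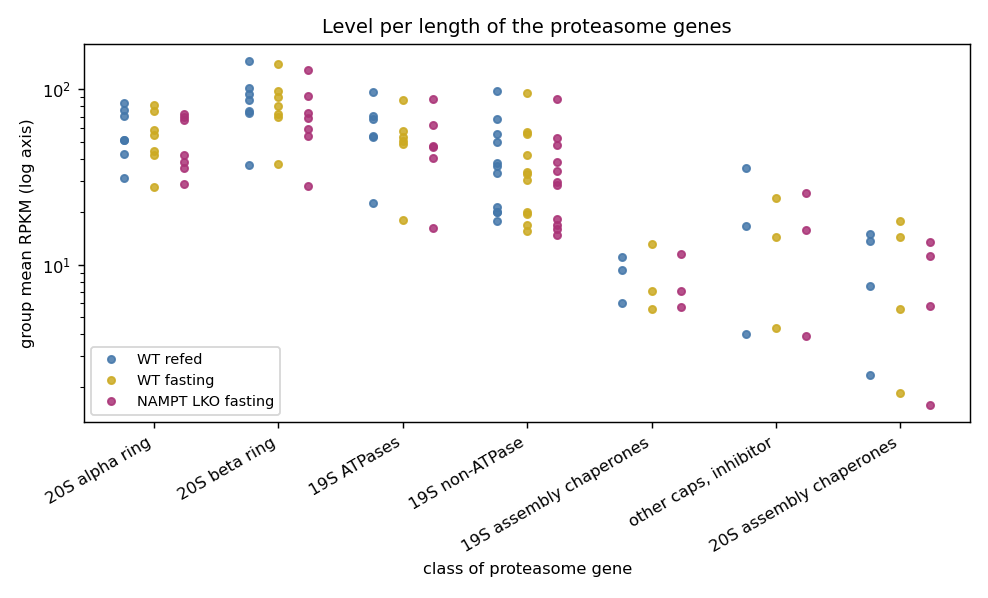
Mean RPKM (log axis) of each of the 41 proteasome genes by class, with 1 point per gene and group. Structural subunits of the core and cap lie between 14.7 and 145 RPKM, and the 19S assembly chaperones lie between 5.56 and 13.1 RPKM in each group.

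Most proteasome transcripts differed little between fasting and refed WT liver. Both groups had been fasted and no group was fed throughout, so effects of fasting and of 2 h of food cannot be told apart. For this comparison, fell and rose mean lower and higher in fasting than in refed liver. In WT fasting against WT refed liver, edgeR's quasi-likelihood test with Benjamini-Hochberg adjustment called 3 of 41 genes at an adjusted p of 0.05, against 7.04% of all genes tested. Psme3 and Psmd5 fell (4.36% of all genes did) and Psmd9 rose (2.68% of all genes did), and none of these encodes a subunit of the 20S core or of the mature 19S cap. The log2 fold change was within 0.5 of 0 for 38 of 41 genes, as for 73.3% of all genes. The median absolute log2 fold change was 0.108 over the proteasome genes and 0.272 over all genes, and the median signed value was -0.055 against 0.037, with 24 of 41 proteasome genes and 46.4% of all genes below 0. A difference that was not called is not shown to be absent, since the median SE of these log2 values was 0.135.

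Psme3 (ENSMUSG00000078652, GRCm38 chr11:101316213-101323537) encodes PA28 gamma, a nuclear cap that opens the 20S core without ubiquitin. It was at 99.5 and 103.5 CPM in WT refed livers and at 76.3, 73.6 and 63.9 CPM in WT fasting livers. The groups did not overlap, and the log2 fold change was -0.51 (SE 0.11, edgeR adjusted p = 0.0207). NAMPT LKO fasting livers, at 74.5, 77.1, 73.5, 82.7 and 80.3 CPM, were also all under the refed values.

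Psmd5 (ENSMUSG00000026869, chr2:34852088-34874968) encodes S5b, a chaperone that holds ATPases of the 19S base during assembly and leaves before the cap is complete. Its level was 41.1 and 38.9 CPM in WT refed livers and 26.8, 26.4 and 26.8 CPM in WT fasting livers. Fasting values were thus nearly identical and well below both refed values (log2 fold change -0.58, SE 0.13, edgeR adjusted p = 0.0261). In NAMPT LKO fasting livers it was at 26.8, 27.8, 23.4, 32.8 and 25.7 CPM. The 5′ end of Psmd5 as given in the files lies beyond the RefSeq start used above and overlaps the opposite-strand gene Cutal, which had 7386 counts over the 10 libraries against 11426 for Psmd5. Whether counting used strand is not given in the sources used here, so this gene's level is uncertain.

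Psmd9 (ENSMUSG00000029440, chr5:123228190-123250131) encodes p27, another chaperone of the 19S base. It went the other way, from 43.5 and 39.3 CPM in WT refed to 67.4, 58.2 and 56.1 CPM in WT fasting livers, with no overlap (log2 fold change 0.55, SE 0.13, edgeR adjusted p = 0.0301). The 5 NAMPT LKO fasting livers lay at 54.0, 60.8, 54.6, 49.5 and 50.4 CPM, between both WT groups or within the fasting range. The third chaperone of this class, Psmd10, was at 8.49 and 8.81 CPM in refed, 8.84, 8.03 and 7.86 CPM in WT fasting and 7.72, 9.10, 8.04, 8.12 and 11.03 CPM in NAMPT LKO fasting livers, with overlapping groups (log2 fold change of fasting against refed -0.07, SE 0.17). The chaperones of the 19S base thus included a gene that fell, a gene that rose and a gene that was not called.

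**Figure D2:**
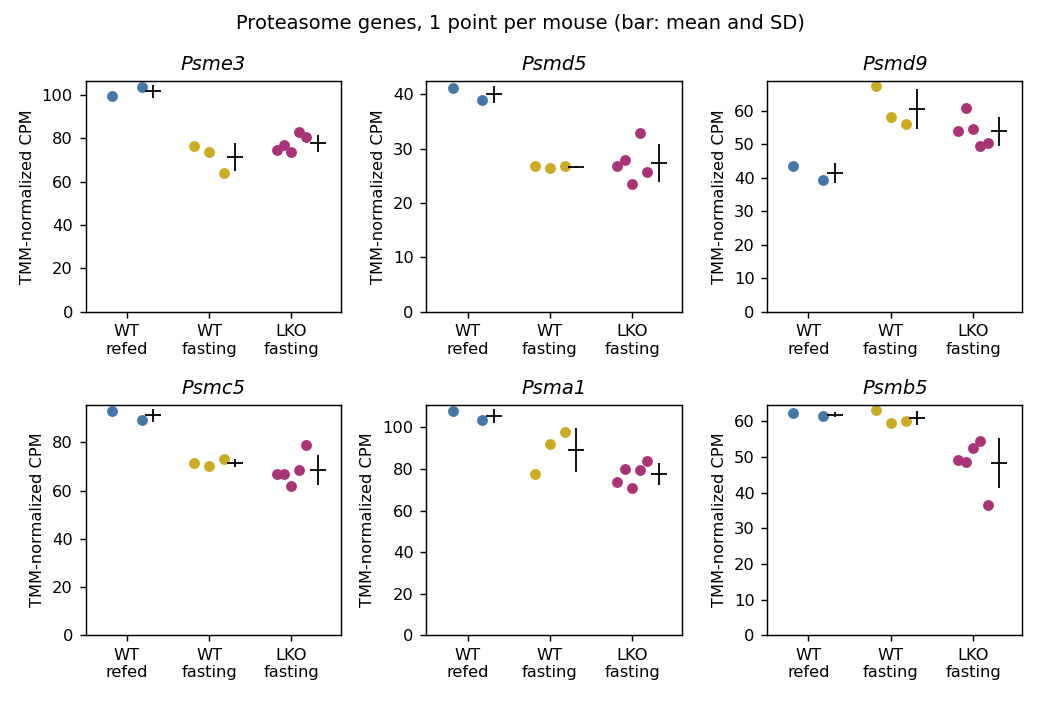
TMM-normalized CPM (axis from 0) of 6 proteasome genes, with 1 point per mouse and the mean and SD of each group beside the points. Psme3, Psmd5 and Psmc5 lie lower and Psmd9 higher in every fasted WT mouse than in both refed mice, and Psmb5 is lower in all 5 NAMPT LKO mice than in the WT mice.

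Psmc5, an ATPase of the 19S base, and Psmd14, the deubiquitinase that strips ubiquitin chains from substrates, had the next lowest p-values and were not called. Psmc5 was at 93.2 and 89.3 CPM in WT refed and at 71.5, 70.1 and 73.2 CPM in WT fasting livers (log2 fold change -0.35, SE 0.12, edgeR adjusted p = 0.1). Psmd14 was at 62.3 and 54.1 CPM against 44.1, 44.6 and 44.3 CPM (log2 fold change -0.39, SE 0.17, edgeR adjusted p = 0.210). For both genes every fasted WT mouse was below both refed mice. At an unadjusted p under 0.05 there were 5 of 41 genes, these 2 and the 3 called, against 22.3% of all genes. Of these 5, 4 were lower (against 11.9% of all genes) and 1 higher (against 1400 of 13444 genes). NAMPT LKO fasting 5 is in neither group but in the shared fit. Without it 9 genes were lower at that p (against 16.6%) and 2 higher (against 2036 of 13371 genes). Without WT fasting 3 as well they were again 9 (against 16.8%) and 2 (against 1976 of 13248 genes).

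None of the 14 genes of the 20S core was called in this comparison, against 7.04% of all genes. The 7 beta ring genes had log2 fold changes of -0.06 to 0.06, and the alpha ring genes -0.24 to 0.14. Of the 17 subunits of the 19S cap 12 were at negative and 5 at positive values, with a median of -0.08. None of the 17 was called, against the same 7.04%. The 4 chaperones of the 20S core spanned -0.39 (Psmg2) to 0.43 (Psmg4). Groups did not overlap for 17 genes that were lower and 5 that were higher, that is 22 of 41 genes, against 49.7% of all genes in either direction (25.1% lower, 24.5% higher).

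The catalytic subunit genes had values near 0. Psmb5 was at 62.4 and 61.4 CPM in WT refed and at 63.3, 59.5 and 60.2 CPM in WT fasting livers (log2 fold change -0.02, SE 0.15). Psmb6 was at 157.5 and 159.0 CPM against 142.4, 148.4 and 166.1 CPM (log2 fold change -0.06, SE 0.12). The third catalytic gene, Psmb7, was at 126.3 and 114.5 CPM against 114.2, 120.8 and 126.2 CPM, with a log2 fold change of 0.00 (SE 0.13). In each of the 3 the groups overlapped. Psmb7 shares a stretch of the genome with Nek6 on the opposite strand, as Psmc3 does with Slc39a13 and Psmd13 with Sirt3, so their counts are uncertain in the same way.

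The 3 calls rested on few animals, with 2 mice in the refed group. Leaving out a refed mouse leaves 1 in that group, so calls are not listed by refed mouse here. The 3 calls are thus not shown to hold without either refed mouse. Leaving out 1 WT fasting library left Psme3 alone (without the first), none (without the second) or Psmd9 alone (without the third). All genes called then numbered 538, 466 and 786, in place of 946. With each of the 10 libraries left out, the log2 fold change was -0.574 to -0.447 for Psme3, -0.631 to -0.556 for Psmd5 and 0.452 to 0.611 for Psmd9. Without NAMPT LKO fasting 5, 5 genes were called, Psmc5 and Psmd14 in addition, while calls over all genes went from 946 to 2231. With library size alone as the scaling Psmd9 was not called (log2 fold change 0.48, edgeR adjusted p = 0.106), Psmc5 was, and 34 of 41 genes were lower.

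**Figure D3:**
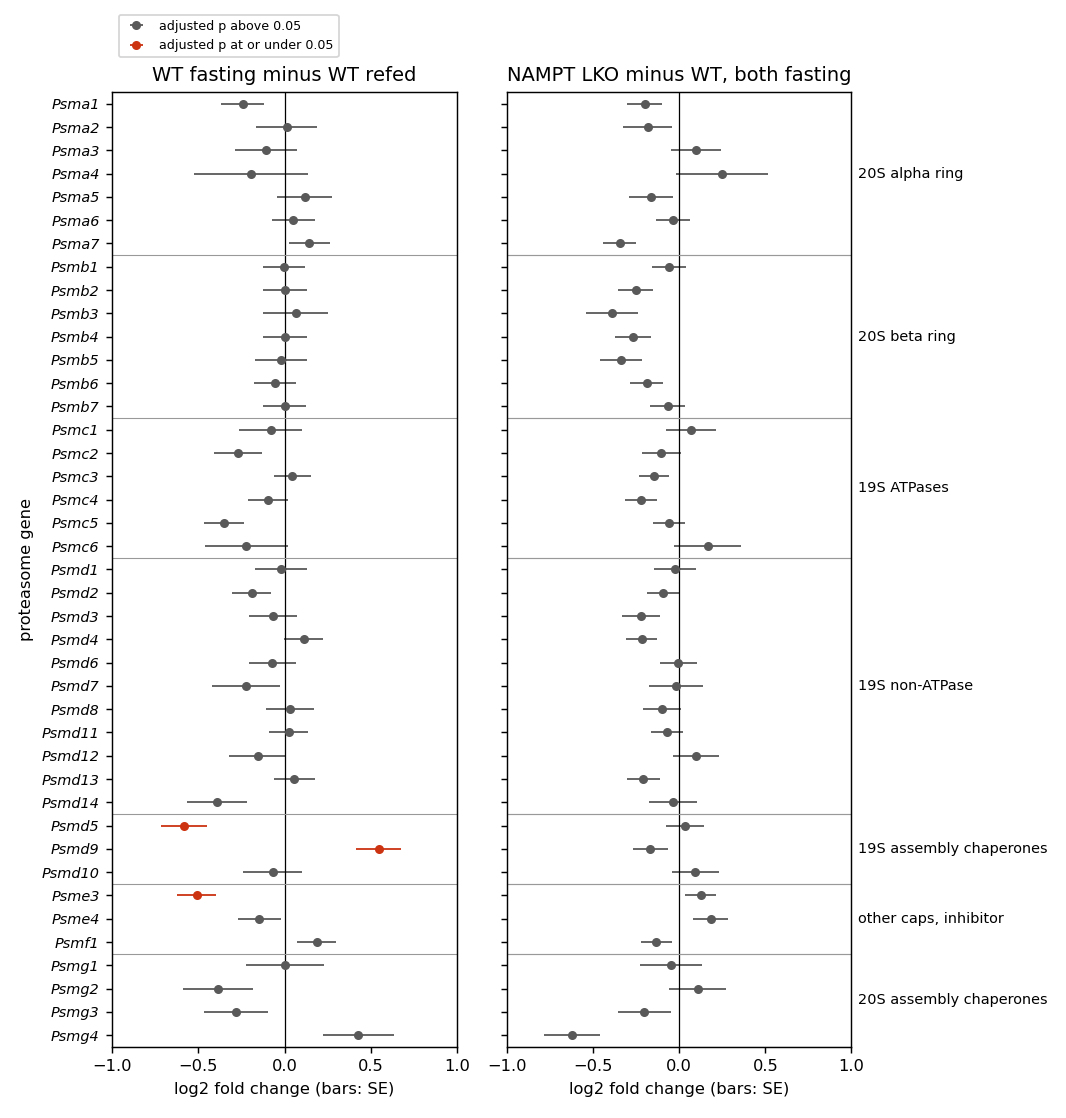
Log2 fold change of the 41 genes by class in WT fasting against WT refed liver (left) and in NAMPT LKO against WT liver, both fasting (right). Bars are SE, and red marks an adjusted p at or under 0.05, which 3 genes reached on the left and 0 on the right, where all 7 beta ring genes lie below 0.

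Loss of hepatocyte NAMPT changed no proteasome gene past the threshold. In NAMPT LKO fasting against WT fasting liver 0 of 41 genes were called, against 0.00744% of all genes, which is 1 gene, Nampt itself (log2 fold change -2.81, SE 0.22, edgeR adjusted p = 0.00102). edgeR's exact test, DESeq2 and limma's voomWithQualityWeights called 0 of 41 as well. At an unadjusted p under 0.05 there were 8 proteasome genes, all of them lower in NAMPT LKO livers (19.5% of the 41, against 3.31% of all genes lower at that p). Values were below 0 for 31 of 41 genes and for 49.9% of all genes, and the median log2 fold change was -0.093 against 0.000.

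The beta ring had the lowest median of the 7 classes. Class medians were also taken with library size alone, GC trends removed, voomWithQualityWeights, and without WT fasting 3, NAMPT LKO fasting 5 or both, and of these 6 alternatives only the last put another class lower, the 20S assembly chaperones (-0.21 against -0.18). All 7 of its genes had negative values, with a median of -0.25 and a range of -0.39 (Psmb3) to -0.06 (Psmb1), and 4 were among the 8 at an unadjusted p under 0.05. The others were Psma7, Psmc4, Psmd4 and Psmg4. The alpha ring had a median of -0.17, the 19S ATPases -0.08 and the other 19S subunits -0.07. The 3 genes for other caps and the inhibitor had a median of 0.12, with Psme4, which encodes the PA200 cap, at 0.18 (SE 0.10).

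Psmb5, the gene for the chymotrypsin-like site, was at 49.3, 48.6, 52.5, 54.5 and 36.5 CPM in NAMPT LKO fasting livers and thus below every WT value given above. The log2 fold change against WT fasting was -0.34 (SE 0.12, edgeR adjusted p = 0.798). Psmb6 was at 127.8, 129.1, 124.2, 137.5 and 149.8 CPM, of which the highest, in library 5, lay within the WT fasting range (log2 fold change -0.19, SE 0.10, edgeR adjusted p = 0.837). Psmb7, at 111.7, 114.6, 99.6, 119.8 and 128.7 CPM, lay on both sides of the WT fasting range, with mice 1 and 3 below it, mice 2 and 4 within it and mouse 5 above it (log2 fold change -0.07, SE 0.10).

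Psmb4 and Psmb3 are noncatalytic subunits of the same ring. Psmb4 was at 121.1, 121.2 and 136.0 CPM in WT fasting and at 107.5, 103.0, 94.3, 122.1 and 96.8 CPM in NAMPT LKO fasting livers, of which only mouse 4 reached the WT range (log2 fold change -0.27, SE 0.10, edgeR adjusted p = 0.824). Psmb3 was at 80.1, 87.5 and 92.4 CPM against 75.2, 69.8, 51.9, 80.7 and 52.4 CPM (log2 fold change -0.39, SE 0.15, edgeR adjusted p = 0.826). Mice 3 and 5 were the lowest, and mouse 4 reached the WT range.

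The lowest p-values belonged to Psmg4, which encodes the 20S assembly chaperone PAC4, and to Psma7, an alpha ring subunit. Psmg4 was at 8.62, 7.97 and 12.9 CPM in WT fasting and at 7.04, 6.28, 6.23, 6.57 and 5.85 CPM in NAMPT LKO fasting livers, while WT refed livers held 7.64 and 7.01 CPM. WT fasting and NAMPT LKO fasting livers did not overlap (log2 fold change -0.62, SE 0.16, edgeR adjusted p = 0.761), and the highest value, 12.9 CPM, was that of WT fasting 3. Psma7 was at 160.6, 162.8 and 186.5 CPM against 124.5, 131.5, 126.7, 144.9 and 140.9 CPM, again with no overlap (log2 fold change -0.35, SE 0.10, edgeR adjusted p = 0.761). WT refed livers, at 159.7 and 147.8 CPM, were also above all 5 NAMPT LKO livers.

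Groups did not overlap for 9 genes that were lower and 0 that were higher in NAMPT LKO livers, against 2.12% and 1.87% of all genes. The count of 8 at an unadjusted p under 0.05 depended on the libraries that stand apart. It was 14 without NAMPT LKO fasting 5 (against 4.58% of all genes lower), 3 without WT fasting 3 (against 1.30%) and 7 without both (against 2.61%). The corresponding counts of genes with negative values were 38, 30 and 38 of 41, all 7 beta ring genes among them each time, and 0 genes were called in each. Bile duct markers moved with genotype: the 5 summed to 34.6 to 51.0 CPM in NAMPT LKO fasting and to 15.2 to 21.2 CPM in WT fasting livers, with 0 of 5 called. Their part in the proteasome values was not tested.

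**Figure D4:**
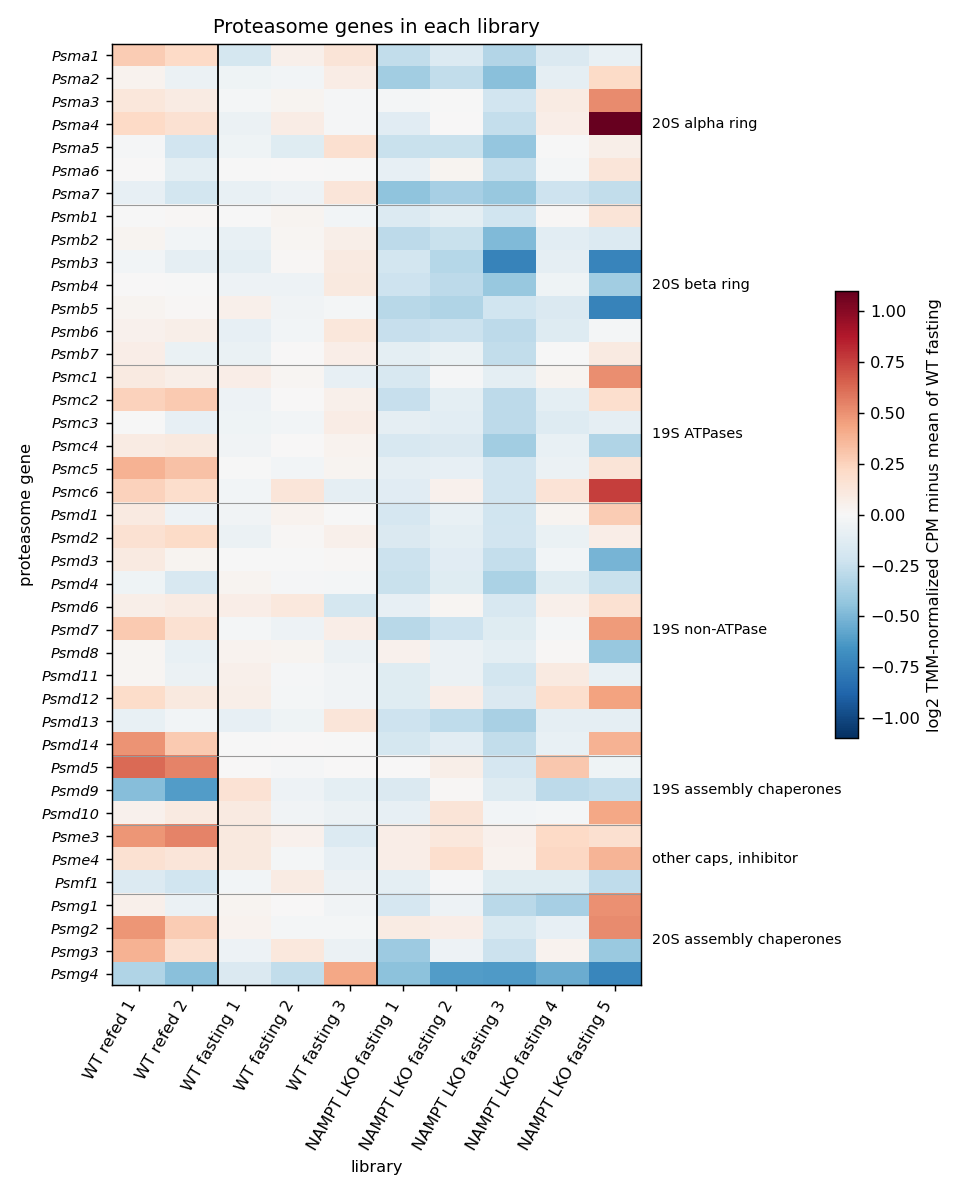
Log2 TMM-normalized CPM of the 41 genes (rows, by class) in each of the 10 libraries (columns), minus the mean of the 3 WT fasting libraries, in red above and in blue below it. NAMPT LKO fasting libraries 1 to 4 are mostly blue, with 27 to 39 of 41 genes below the WT fasting mean, and library 5 mixes the strongest red (Psma4) with blue.

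Mouse by mouse, 36, 30, 39, 27 and 19 of the 41 genes were below the WT fasting mean in NAMPT LKO fasting livers 1 to 5, with library medians of -0.17, -0.09, -0.24, -0.04 and 0.07 on the log2 scale. The median over all genes was between -0.01 and 0.00 in the same 5 libraries. In library 5 the proteasome genes scattered, with an SD of 0.36 around the other NAMPT LKO mice against 0.09 to 0.15 for the other 4. Psma4, an alpha ring gene, was at 300.6 CPM there and at 117.2 to 148.2 CPM in the others, whereas Psmb5 was lower there than in the others.

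Base composition moved with the deviations of this and of other libraries. Across the 41 genes the deviation of library 5 from the other NAMPT LKO mice had a Spearman rho of -0.57 with GC content. GC content was that of the longest annotated transcript of each gene, and rho is a description over genes that share 1 library. Libraries 1 and 3, each set against a mean that includes library 5, had values nearly as large with the opposite sign (0.55 and 0.55), and libraries 2 and 4 had 0.22 and 0.27. Whether the trend is particular to library 5 was not tested. Of the 20 genes below the median GC content of 49.5%, 17 were higher in library 5, with a median of 0.33, and of the 21 at or above it 11 were higher, with a median of 0.06. With each library's trend on GC content removed, 34 of 41 genes were lower in NAMPT LKO than in WT fasting livers, the median was -0.12 and 0 were called.

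NAMPT LKO fasting against WT refed liver combines genotype and feeding and uses the same refed mice as the comparison of fasting above. Here 4 of 41 genes were called, all lower (9.76% of the 41, against 6.58% of all genes lower and 11.2% in either direction). They were Psmd5 (log2 fold change -0.55, SE 0.12, edgeR adjusted p = 0.0169), Psma1 (-0.45, SE 0.11, edgeR adjusted p = 0.0304), Psmc5 (-0.41, SE 0.11, edgeR adjusted p = 0.0316) and Psme3 (-0.39, SE 0.10, edgeR adjusted p = 0.0347). Values were negative for 35 of 41 genes, against 46.8% of all genes, with a median of -0.15 against 0.03. At an unadjusted p under 0.05, 14 genes were lower, against 13.5% of all genes. They were 19 without NAMPT LKO fasting 5 (against 17.6%), 13 without WT fasting 3 (against 14.2%) and 20 without both (against 19.2%).

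Psma1, an alpha ring gene, was at 108.0 and 103.3 CPM in WT refed livers, at 77.6, 92.1 and 97.9 CPM in WT fasting livers and at 73.6, 80.1, 71.0, 79.5 and 83.8 CPM in NAMPT LKO fasting livers. Both fasted groups lay under both refed mice, and they overlapped each other. Psmc5 was at 66.8, 67.1, 61.9, 68.6 and 78.9 CPM in NAMPT LKO fasting livers, also under both refed values. Psmd9 was higher than in either refed mouse in all 5 NAMPT LKO livers and was not called (log2 fold change 0.38, SE 0.12, edgeR adjusted p = 0.0686). Psmd14 was at 38.8, 40.8, 36.8, 41.8 and 57.7 CPM, of which library 5 alone reached the refed range (log2 fold change -0.43, SE 0.16, edgeR adjusted p = 0.108). Psmg3 was at 7.04 and 6.11 CPM in refed, 5.20, 5.86 and 5.17 CPM in WT fasting and 4.08, 5.19, 4.58, 5.54 and 4.08 CPM in NAMPT LKO fasting livers (log2 fold change against refed -0.48, SE 0.17, edgeR adjusted p = 0.0942).

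The number called here moved widely with the method. The number called over all genes, in parentheses, moved as well. In place of 4 (1510), it was 12 without NAMPT LKO fasting 5 (2835), 19 with limma's voomWithQualityWeights (4281) and 8 with DESeq2 (2242). It was 1 without NAMPT LKO library 1, 2 or 3 (1177, 989 and 1097), when Psmd5 alone remained. Leaving out a refed mouse leaves 1 in that group, so Psmd5 is not shown to stay called without either refed mouse. With each of the 10 libraries left out its log2 fold change was -0.623 to -0.507. Direction moved less, with 30 to 40 of 41 genes negative over these and all other alternatives.

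The immunoproteasome genes separated 1 mouse from the rest. The RPKM sum of Psmb8, Psmb9 and Psmb10 was 8.21% and 8.74% of the sum of Psmb5, Psmb6 and Psmb7 in WT refed livers, 6.23%, 6.33% and 47.6% in WT fasting livers and 9.55%, 6.59%, 8.91%, 6.78% and 5.18% in NAMPT LKO fasting livers. WT fasting 3 alone was high, while its constitutive sum of 266 RPKM lay beside 244 and 235 RPKM in the other WT fasting mice. Psmb8 was at 76.9 CPM in that library and at 7.98 to 12.1 CPM in the other 9, and Psmb9 at 98.7 CPM and 6.95 to 13.1 CPM. The summed markers of Kupffer cells and macrophages were at 488 CPM in WT fasting 3 and at 244 and 229 CPM in the other WT fasting mice. They were at 191 to 238 CPM in WT refed and at 169 to 378 CPM in NAMPT LKO fasting livers. Their part in the immunoproteasome values was not tested.

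**Figure D5:**
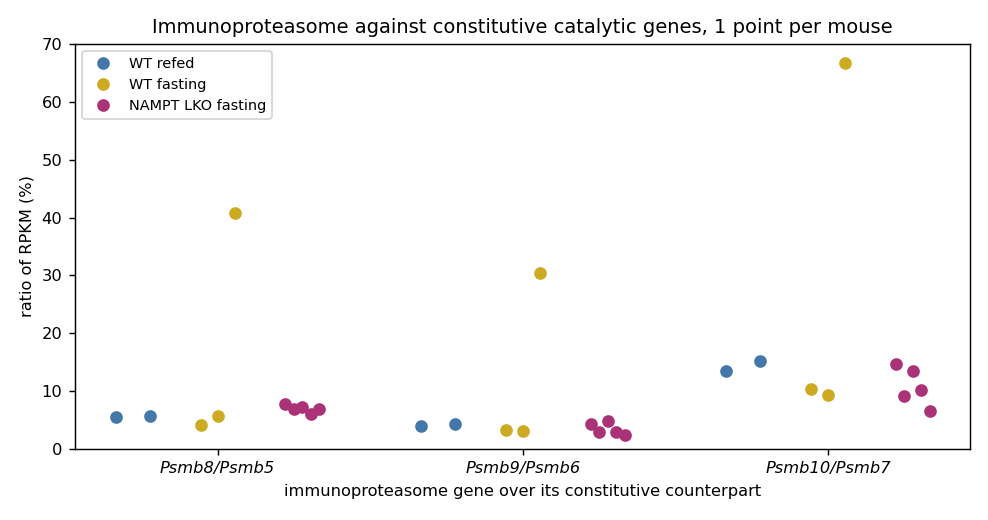
Ratio of RPKM, in percent (axis from 0), of each inducible catalytic gene to its constitutive counterpart, with 1 point per mouse. WT fasting 3 is at 40.7%, 30.4% and 66.8% for the 3 pairs, and the other 9 mice are at 2.37% to 15.1%.

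No ratio of a pair passed the test between groups. For Psmb8 over Psmb5 the log2 ratio was 0.83 higher in WT fasting than in WT refed livers (exact two-sided permutation test, p = 0.8) and 0.50 lower in NAMPT LKO fasting than in WT fasting livers (p = 0.696, exact permutation test). For all 6 tests over the 3 pairs the adjusted p was 0.964 to 1, where 2 against 3 mice cannot give less than 0.1 and 3 against 5 not less than 0.0179. All 6 differences turned in sign without WT fasting 3. The inducible 11S cap genes Psme1 and Psme2 were at 209.7 and 90.8 CPM in WT fasting 3. In the other mice they were at 73.9 to 94.9 and 29.1 to 47.3 CPM. In each comparison 0 of the 5 immunoproteasome genes were called. The shares of all genes were 7.04% for WT fasting against WT refed and 0.00744% for NAMPT LKO against WT fasting. For NAMPT LKO fasting against WT refed the share was 11.2%.

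Several genes that act upstream of the proteasome passed the test between fasting and refed liver. Of 18 genes of ER-associated degradation, which passes misfolded proteins from the endoplasmic reticulum to the proteasome, 7 fell in WT fasting against WT refed liver and 0 rose, against 4.36% and 2.68% of all genes. The ubiquitin ligase Syvn1 was at 571 and 506 CPM in refed and at 88.7, 76.0 and 110 CPM in WT fasting livers (log2 fold change -2.56, SE 0.20, edgeR adjusted p = 0.000235), and its partner Sel1l at 354 and 325 CPM against 151, 157 and 169 CPM (log2 fold change -1.09, edgeR adjusted p = 0.00120). Neither gene overlapped between groups.

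The ubiquitin-activating enzyme Uba6 was not called (log2 fold change -0.81, edgeR adjusted p = 0.0738). Of 17 shuttle receptors and p97 cofactors 2 fell, against 4.36% of all genes, namely Ubqln1 (log2 fold change -0.41, edgeR adjusted p = 0.0437) and Ubxn4 (-0.87, edgeR adjusted p = 0.0480). Of 3 tested ubiquitin ligase genes linked to atrophy 2 rose, against 2.68% of all genes, namely Fbxo32 (1.85, edgeR adjusted p = 0.00146) and Fbxo21 (0.83, edgeR adjusted p = 0.0236), the former at 1.04 to 1.30 CPM in refed and 4.19 to 4.29 CPM in WT fasting livers.

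Genes that build or sit on the particle and lie outside the symbol rule were not called between fasting and refed WT liver. This was 0 of 9, against 7.04% of all genes. Among them Usp14, a deubiquitinase of the cap, was at 42.3 and 47.5 CPM in refed and 33.4, 31.9 and 31.5 CPM in WT fasting livers (log2 fold change -0.48, SE 0.15, edgeR adjusted p = 0.0825). The cap receptor Adrm1 (-0.18, SE 0.18), the core maturation factor Pomp (0.00, SE 0.27), the lid subunit Sem1 (0.14, SE 0.33) and the deubiquitinase Uchl5 (0.08, SE 0.23) had overlapping groups, other than Sem1. Of the 9 genes of the NRF1 pathway list only Syvn1 and Sel1l, which are also on the ER list, were called (against 7.04% of all genes). Nfe2l1 itself was at 149 and 147 CPM in refed, 182, 155 and 203 CPM in WT fasting and 155 to 185 CPM in NAMPT LKO fasting livers (log2 fold change of fasting against refed 0.28, SE 0.14, edgeR adjusted p = 0.252), and Nfe2l2 (NRF2) had a log2 fold change of 0.09 (SE 0.16).

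None of these lists had a call in NAMPT LKO against WT fasting liver. Against WT refed livers, NAMPT LKO fasting livers had 7 of the 18 ER-associated degradation genes and 4 of 17 shuttle and p97 genes lower, against 6.58% of all genes, and both Fbxo32 and Fbxo21 higher, against 4.65% of all genes. Usp14 was lower (log2 fold change -0.48, SE 0.14, edgeR adjusted p = 0.0443). The thymus subunit Psmb11 was under 0.1 CPM in every library, and the germ-cell subunit Psma8 and Psmb11 together reached at most 1.21 CPM.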

How the data were processed

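Liver mRNA of 10 mice was sequenced as single reads after poly-A selection. The submitters' processing notes name STAR 2.5.1a, featureCounts 1.4.6-p5 and GRCm38. Strand use in counting is not given in the sources used here. The authors deposited counts of uniquely aligned reads per gene, CPM (counts scaled by the library total) and RPKM (also divided by exonic length). Groups follow the labels, which give 24 h of fasting and a refed group, where the paper gives 12 h and calls that group fed. Refed mice are numbered in accession order.

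Genes over 1 CPM in 1 or more libraries, rRNA genes excepted (13444 genes), were scaled by TMM and tested with edgeR 4.0.16 (quasi-likelihood, R 4.3.3), all 10 libraries sharing one fit, with Benjamini-Hochberg adjustment and a threshold of 0.05. The p-values measure the spread between mice. RPKM ratios were tested by exact permutation. Alternatives were library size alone, DESeq2 1.42.0, edgeR's exact test, limma 3.58.1 voomWithQualityWeights, other filters, fewer libraries, GC trends removed (loess span 0.5) and a replicate block. The fit was tested on simulated data with 100 genes changed by 0.5 and 100 by 1 on the log2 scale. In WT fasting against WT refed liver it recovered 3 and 53 of them. In NAMPT LKO against WT fasting liver it recovered 14 and 86, with 6 false calls in each comparison. GC content came from GENCODE and upstream sequence from RefSeq, both of the files' build. Named were the catalytic subunits, the 5 proteasome genes of lowest p and the 2 of at least 5 CPM with the largest absolute log2 fold change in each comparison, the 3 highest and 3 lowest in RPKM, preset regulators and the 2 lowest p of each list in fasting against refed liver (marker lists are given as sums). Genes and lists were chosen with earlier results of these data known. A planned comparison of protein sequences was not run, and 1 gene of the lists is not reported here.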

Additional observations from a re-analysis of the deposited data

Results flagged for a closer look

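In 44 values over the NAMPT LKO fasting group, the only group of at least 4 mice, 4 proteasome genes had 1 mouse whose gap to the nearest other exceeded Dixon's 95% limit of 0.71 of the range, where chance alone flags about 2.2 of 44. In library 5, Psma4, an alpha ring gene, was at 300.6 CPM against 117.2 to 148.2 CPM in the other 4 mice (gap 0.831 of the range). Psmd14, the 19S deubiquitinase, was at 57.67 CPM against 36.84 to 41.83 CPM (gap 0.761), and Psmc1, a 19S ATPase, at 190.5 CPM against 118.7 to 136.6 CPM (gap 0.75), again in library 5. In library 3, Psmc3, another 19S ATPase, was at 114.8 CPM against 127.3 to 131.1 CPM (gap 0.771).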

How the results depend on the processing

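In WT fasting against WT refed liver the number of proteasome genes called was 3, 6 with voomWithQualityWeights, 5 with the libraries of only these groups, and 0 to 5 with each library left out. All genes called numbered 946, 1646 with DESeq2, 3331 with voomWithQualityWeights, 1649 with only these groups, 1426 with GC trends removed, and 107 to 2231 with each library left out. With library size alone 25.7% of the called genes were higher, against 38.1% with TMM. In NAMPT LKO against WT fasting liver no alternative called a proteasome gene, and all genes called numbered 1, 2 with library size alone, 24 with DESeq2, 24 with edgeR's exact test, 17 without the filter, 3 with filterByExpr, 3 with GC trends removed, and 1 to 2 with each library left out. In NAMPT LKO fasting against WT refed liver the number of proteasome genes called was 4, 7 with library size alone (median log2 fold change -0.248), 8 with DESeq2, 19 with voomWithQualityWeights, 2 without the filter, 2 with only these groups, 7 with GC trends removed, and 0 to 12 with each library left out. There all genes called numbered 1510, 4281 with voomWithQualityWeights, and 227 to 2835 with each library left out, and 26.1% of the calls were higher with library size alone against 41.4%. Leaving out WT fasting 3 and NAMPT LKO fasting 5 together, chosen after seeing the data, gave 5 and 12 proteasome genes and 2293 and 3329 genes in the comparisons with refed liver. With each library left out the log2 ratio of fasting against refed was -0.198 to 1.444 for Psmb8/Psmb5, -0.387 to 1.263 for Psmb9/Psmb6 and -0.541 to 0.874 for Psmb10/Psmb7, and that of NAMPT LKO against WT fasting -1.118 to 0.524, -1.566 to 0.084 and -1.338 to 0.077, in each case with the change of sign without WT fasting 3. The cause of these shifts was not tested.

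Replicate numbers 1 to 3 are shared by different WT and NAMPT LKO fasting animals. Correlations of same-numbered deviations were 0.0764, 0.1619 and 0.0968, so the numbers were not taken to pair mice, although each NAMPT LKO library correlated best with its own number. With the replicate block, without it and with the block and GC trends removed, these 6 libraries gave 0 genes called, Nampt at -2.781, -2.870 and -2.793 (edgeR adjusted p = 0.106, 0.269 and 0.110), and a median log2 fold change over the proteasome genes of -0.163, -0.162 and -0.162. With lengths from GENCODE in place of the deposited RPKM the median level was 31.22. With medians of 0.109 to 0.135 for the SE of a log2 fold change, the median absolute changes of the proteasome genes, 0.108 to 0.171, were of about the size of the SE itself and under what these group sizes can detect.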
